A study of Homo sapiens with 24 samples.

Results

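MYC and MYCL are members of the MYC proto-oncogene family, and their transcripts were followed here through 3 experiments on BT549 cells. BT549 is an established human line of triple negative breast cancer, with the genotype WT in the labels. MYC and MYCL were chosen by gene symbol, as 2 of the 18154 gene symbols measured in the series. RNA came from 24 libraries in 8 groups of 3, labelled as biological replicates, and was sequenced after ribosomal RNA had been depleted. The labels do not say whether replicates were separate cultures, so p-values measure the spread between these libraries. In the knockdown experiment, siMYC cells were treated for 72 h with SMARTpool siRNA, several siRNAs to the same transcript, and siCtl cells were their controls. In the inhibitor experiment, the groups were DEX, KJ-PYR-9, KJ-PYR-9 + DEX and the vehicle VEH. KJ-PYR-9, a small molecule that hinders the pairing of MYC with its partner MAX, was given in DMSO at 40 µM for 3 h. The third experiment set MB3, cells given 100 µM MB-3 in DMSO for 3 h, beside a vehicle of its own, VEH2; MB-3 inhibits the histone acetyltransferase GCN5, which KAT2A encodes. What DEX stands for, its dose and time, and the times of the control groups are not given in the labels. All groups share the same line and culture medium.

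MYC proteins are transcription factors of the basic helix-loop-helix leucine zipper class. They bind DNA as dimers with MAX, at short sites called E-boxes, and raise the transcription of genes for ribosome building, nucleotide synthesis and cell growth, while some cell cycle inhibitors are held down where MYC is bound with ZBTB17. MYC mRNA and protein are both short-lived, so the transcript can change within hours, and MYC protein is known to lower transcription of its own gene. MYCL, which encodes L-MYC, is best known from small cell lung cancer and dendritic cells. MYC and MYCL share the dimerization partner.

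On GRCh38, the RefSeq gene MYCL spans 39895428 to 39901917 on the minus strand of chromosome 1. In GENCODE 29, which gives 5063 bases of exon, it starts further upstream, at 39902256. An antisense gene, AL033527.2, overlaps MYCL, and because the strandedness of the counting is not given, reads of that gene cannot be told apart from those of MYCL. The bases before the RefSeq start of MYCL, where E-boxes were looked for because MYC family proteins bind them, are from RefSeq (GRCh38.p14). In the 250 bases upstream, the 6-letter site CACGTG, which reads the same on both strands, was not found; 6.34% of 35116 promoters of that length hold it. Of 3 variants searched on both strands, CACCTG was present, 210 bases before the start, overlapping no other match; 17.5% of promoters hold it. The variant CATGTG, in 9.42% of promoters, was not found, nor was the variant CACGCG, in 9.72%. Whether MYC family proteins bind the CACCTG variant here was not measured. The match is shown with 12 bases on each side, from chr1:39902110-39902139 on the minus strand, with the site in capitals; this stretch lies before the RefSeq start, inside the GENCODE gene, and touches no GENCODE exon of MYCL.
MYCL site: tggggccggcccCACCTGtcgactgcccgt

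Depth was 18765269 to 24154628 reads per library in the knockdown, 5581666 to 30758107 in the inhibitor experiment and 8305573 to 19957494 in the MB-3 experiment. Features without a gene symbol held 26.0% of the reads of DEX replicate 1. All 6 markers of a mesenchymal-like breast line were present in every library, summing to between 434 and 711 RPKM, the reads of a gene scaled by its exon length and by the named reads of the library. The 8 luminal or hormone receptor markers, of which 2 to 6 had a row in a table, summed to 9.23 to 21.2, and the leukocyte markers to 1.15 to 3.75. In the inhibitor experiment, CORO1A carried most of the leukocyte sum. GATA3 and ERBB2, with medians of 7.53 and 6.92 RPKM, carried most of the luminal or hormone receptor sum. PTPRC, CD68, PGR and FOXA1 were at or near 0.

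MYC, the targeted gene, spans 127735434 to 127742951 on the plus strand of chromosome 8 (RefSeq, GRCh38), with 3001 bases of exon in GENCODE 29 and no other annotated gene across it. Its level was lower in siMYC cells by a small margin. Its normalized read count was 1655, 1789 and 1710 in the siMYC libraries, against 2313, 2269 and 2138 in the siCtl libraries. Every siMYC library lay below every siCtl library. MYC averaged 1718 ± 67.2 in siMYC cells and 2240 ± 91.2 in siCtl cells (SD, n = 3 each), so the siMYC level was 76.7% of control. The log2 fold change was -0.38 (SE 0.11, 95% interval -0.64 to -0.12) and did not pass the threshold of 0.05 (limma, Benjamini-Hochberg adjusted p = 0.0587 over 14788 genes, of which 16.1% passed in either direction). The call depended on the fit: with edgeR on the recovered reads the change was -0.45 with adjusted p = 0.0175, and over all alternatives other than leaving out a library the adjusted p ran from 0.00119 to 0.197. Per length, MYC stood between rank 1490 and 1570 of 14934 genes in siMYC libraries and between 917 and 1083 in siCtl libraries. Mesenchymal-like markers summed to 587 to 670 RPKM in siMYC libraries, against 497 to 519 in siCtl libraries, and their part was not tested. As these are bulk samples, fewer cells expressing a gene and less RNA per cell cannot be told apart.

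MYCL rose in the same libraries. It had 92.1, 119 and 85.3 normalized counts in siMYC cells, against 51.4, 49.1 and 39.3 in siCtl cells. The groups did not overlap, and the lowest siMYC library was well above the highest siCtl library. The means were 98.7 ± 17.7 in siMYC cells and 46.6 ± 6.41 in siCtl cells, a 2.09-fold difference (log2 1.06, SE 0.18, 95% interval 0.64 to 1.48, limma adjusted p = 0.0161). In this comparison 11.4% of all genes tested were called higher, and MYCL stood at the 94.6th percentile of their log2 fold changes. The call rested on few reads, 92 to 136 per siMYC library and 45 to 52 per siCtl library, and was lost without siCtl replicate 2 (adjusted p = 0.0551) or without siCtl replicate 3 (adjusted p = 0.0602), with fold changes of 1.10 and 0.95 on the log2 scale.

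**Figure D1:**
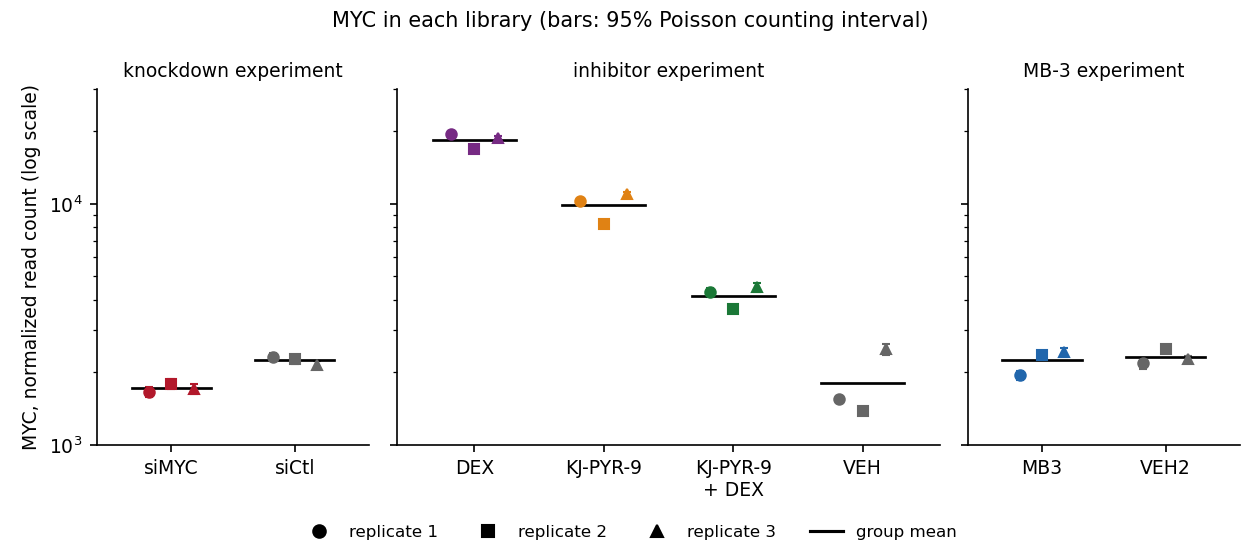
MYC normalized read count in each library (log axis) of the knockdown, inhibitor and MB-3 experiments, with replicates as points, group means as lines and 95% Poisson counting intervals as bars. Each experiment was normalized on its own, so levels are read within a panel: the 3 siMYC points sit below the 3 siCtl points, and the 4 inhibitor groups stand in separate bands.

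MYC changed most in the inhibitor experiment, where its level in all 4 groups was distinct. Its normalized read count was 19573, 16916 and 18783 in DEX libraries and 10272, 8283 and 11004 in KJ-PYR-9 libraries. In KJ-PYR-9 + DEX libraries it was 4305, 3666 and 4510, and in VEH libraries 1551, 1378 and 2490. No library of any group overlapped another group, although VEH replicate 3, at 2490, stood above the other VEH libraries. The order from high to low was therefore DEX, KJ-PYR-9, KJ-PYR-9 + DEX and VEH, and each step in it was larger than the spread between replicates.

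MYC rose 10.5-fold in DEX cells, with means of 18424 ± 1364 in DEX libraries and 1806 ± 598 in VEH libraries (log2 3.40, SE 0.21, 95% interval 2.94 to 3.85, limma adjusted p = 4.07e-06). Here 17.5% of 13616 genes passed, 9.5% higher and 8.02% lower, and MYC was 37th by size of change. The share of all named reads that MYC took, which does not depend on the deposited scaling, was 0.130% to 0.155% in DEX libraries, against 0.0120% to 0.0206% in VEH libraries. Per length, MYC stood between rank 24 and 36 of 16535 genes in DEX libraries and between rank 497 and 991 in VEH libraries. Leaving out each library in turn kept the log2 fold change between 3.23 and 3.65. The luminal and hormone receptor markers summed to 9.23 to 11.3 RPKM in DEX libraries, against 14.5 to 20.3 in VEH libraries, and the leukocyte markers to 1.15 to 1.70, against 1.86 to 2.15; their part in the result was not tested.

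MYC also rose with KJ-PYR-9 alone. The mean was 9853 ± 1408 in KJ-PYR-9 libraries and 1806 ± 598 in VEH libraries, a 5.60-fold difference (log2 2.49, SE 0.21, 95% interval 2.03 to 2.94, limma adjusted p = 6.38e-05). Leukocyte markers summed to 2.98 to 3.46 RPKM in KJ-PYR-9 libraries, against 1.86 to 2.15 in VEH libraries, and mesenchymal-like markers to 480 to 488, against 492 to 504; their part in the result was not tested. Of all genes tested 42.9% were called, 25.4% higher and 17.5% lower, and MYC was 62nd by size of change. Set directly against DEX, KJ-PYR-9 gave a lower MYC level, by -0.91 on the log2 scale (95% interval -1.37 to -0.45, limma adjusted p = 0.00281); 68.9% of genes were called in that comparison, 32.8% lower. DEX and KJ-PYR-9 are each compared with the same VEH libraries, so the estimates share their control.

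With both agents, MYC was well below its level with either alone. KJ-PYR-9 + DEX libraries averaged 4160 ± 440, against 18424 ± 1364 in DEX libraries, which is 22.5% of the DEX level (log2 -2.15, SE 0.21, 95% interval -2.61 to -1.69, limma adjusted p = 5.71e-05), in a comparison where 33.6% of genes were called higher and 35.1% lower. Against the 9853 ± 1408 of KJ-PYR-9 alone it was 42.4% (log2 -1.24, limma adjusted p = 0.00395), where 3.17% of genes were called higher and 4.38% lower. Mesenchymal-like markers summed to 434 to 481 RPKM in KJ-PYR-9 + DEX libraries, against 552 to 621 in DEX libraries. Luminal and hormone receptor markers summed to 15.6 to 17.9, against 9.23 to 11.3, and leukocyte markers to 2.96 to 3.75, against 1.15 to 1.70; their part in the MYC difference was not tested. Against VEH, MYC with both agents stayed higher, 2.37-fold (log2 1.25, SE 0.21, limma adjusted p = 0.00389), where 18.4% of genes were called higher. In RPKM this difference was also smaller, with means of 98.9 ± 9.60 in KJ-PYR-9 + DEX libraries and 51.5 ± 15.2 in VEH libraries.

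The KJ-PYR-9 effect on MYC thus took opposite signs, -2.15 in the presence of DEX and 2.49 in its absence on the log2 scale. The interaction, the effect with DEX minus the effect without it, was -4.63 (SE 0.30, 95% interval -5.28 to -3.99, limma adjusted p = 4.38e-06), whereas the median over all genes tested was -0.11. Of the 13616 genes, 7.15% had a positive and 9.62% a negative interaction that passed, and MYC was 20th by p-value. No left-out library brought it outside -4.89 to -4.46. Unnamed features held 1.62% to 8.72% of reads in this experiment outside DEX replicate 1, and DEX replicate 2, with 1.62%, had 16916 MYC counts.

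MYCL did not follow the MYC order of groups in these 12 libraries, and no comparison of it passed the threshold in the main fit. With the replicate number as a block, KJ-PYR-9 + DEX against KJ-PYR-9 and KJ-PYR-9 against DEX passed, as given below. It had 18.3, 15.5 and 23.0 normalized counts in DEX libraries and 21.3, 32.7 and 30.8 in KJ-PYR-9 libraries. KJ-PYR-9 + DEX libraries had 10.0, 19.6 and 15.7, and VEH libraries 17.8, 22.9 and 21.9. The ranges of DEX, VEH and KJ-PYR-9 overlapped, while every KJ-PYR-9 + DEX library lay below every KJ-PYR-9 library. These are small numbers: 5 reads in KJ-PYR-9 + DEX replicate 1 and 6 in DEX replicate 1, for which the 95% Poisson interval on the normalized scale runs from 6.72 to 39.8, and at most 60 in any library. Such intervals cover counting error only.

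From high to low, mean MYCL was 28.3 ± 6.09 in KJ-PYR-9, 20.9 ± 2.71 in VEH, 18.9 ± 3.77 in DEX libraries and 15.1 ± 4.81 in KJ-PYR-9 + DEX libraries (SD, n = 3 each), and no neighbours in that order differed past the threshold. In RPKM, which does not use the deposited scaling, KJ-PYR-9 did not stand above VEH, with means of 0.354 ± 0.0690 and 0.354 ± 0.0402. With TMM the log2 difference between them was 0.33. In RPKM, KJ-PYR-9 + DEX replicate 2, at 0.285, also lay above KJ-PYR-9 replicate 1, at 0.277. KJ-PYR-9 against VEH gave log2 0.41 (95% interval -0.13 to 0.94, limma adjusted p = 0.191). DEX against VEH gave -0.14 (95% interval -0.68 to 0.40, limma adjusted p = 0.678), so a change of MYCL as large as that of MYC lay outside the interval. KJ-PYR-9 + DEX gave -0.48 against VEH (95% interval -1.02 to 0.06, limma adjusted p = 0.137) and -0.34 against DEX (95% interval -0.87 to 0.20, limma adjusted p = 0.238).

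MYCL came closest to a call in KJ-PYR-9 + DEX against KJ-PYR-9 alone, where its level was 54.1% and the groups did not overlap (log2 -0.89, 95% interval -1.42 to -0.35, limma adjusted p = 0.0515), against 7.55% of genes called in that comparison. Same-numbered libraries of this experiment deviated together, less clearly so for replicate 1. KJ-PYR-9 replicate 1 correlated at 0.184 with KJ-PYR-9 + DEX replicate 1 and at 0.235 with KJ-PYR-9 + DEX replicate 2. With the replicate number as a block, the limma adjusted p for MYCL was 0.0149. KJ-PYR-9 against DEX gave 0.55 (95% interval 0.01 to 1.09, limma adjusted p = 0.0647), and adjusted p = 0.0241 with the replicate block. The MYCL interaction was -0.74 (95% interval -1.50 to 0.02, limma adjusted p = 0.169).

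**Figure D2:**
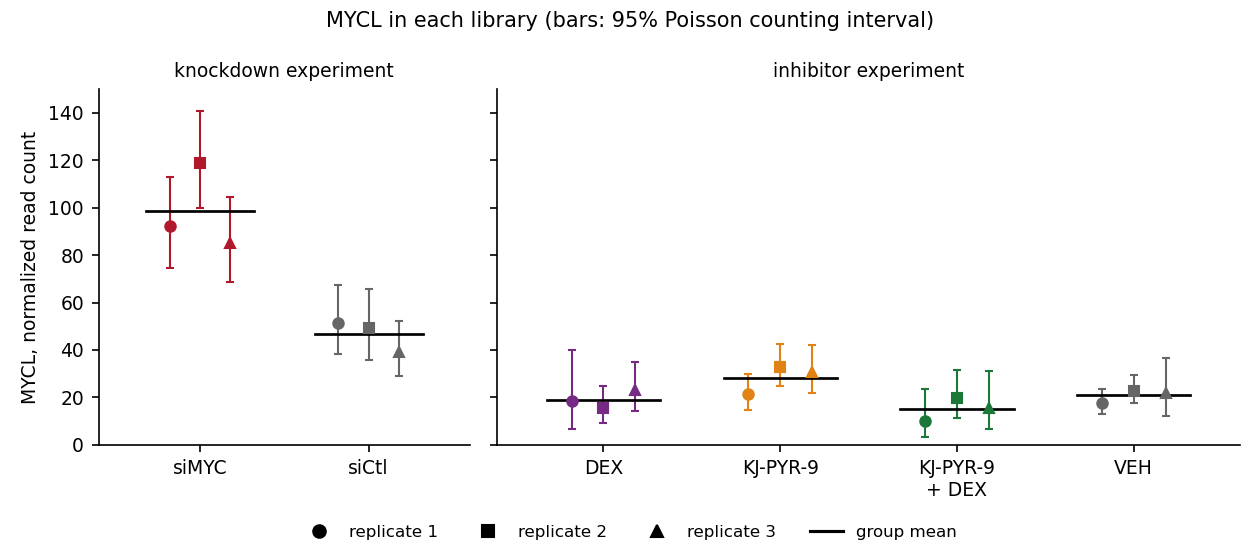
MYCL normalized read count in each library of the knockdown and inhibitor experiments (linear axis from 0), drawn with group means and 95% Poisson counting intervals. The siMYC libraries, at 85.3 to 119, lie above the siCtl libraries, at 39.3 to 51.4, and the inhibitor libraries run from 10.0 to 32.7, with wide intervals and no overlap between KJ-PYR-9 + DEX and KJ-PYR-9.

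MYC was by far the more abundant of the pair in every library. In RPKM, MYC levels ran from 25.8 to 518 and MYCL levels from 0.151 to 1.12 over the libraries in which both were analysed. The ratio of MYC to MYCL per length was lowest in siMYC libraries, at 25.4 to 33.8, against 76.0 to 91.7 in siCtl libraries. It was 1380 to 1842 in DEX libraries, 427 to 813 in KJ-PYR-9 libraries and 316 to 724 in KJ-PYR-9 + DEX libraries, against 102 to 192 in VEH libraries. KJ-PYR-9 + DEX overlapped with KJ-PYR-9 alone, and in the other 6 pairs of groups compared the ratios did not overlap. A two-sided exact permutation test of the log2 ratio gave p = 0.1 in each of those 6, the smallest that 3 against 3 allows (0.117 adjusted over the 7 pairs), and p = 0.5 in KJ-PYR-9 + DEX against KJ-PYR-9.

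The MYC difference between MB-3 and its controls did not pass the threshold. The normalized read count was 1941, 2366 and 2427 in MB3 libraries, against 2178, 2499 and 2262 in VEH2 libraries. The groups overlapped, with MB3 replicate 1 the lowest library of all and VEH2 replicate 2 the highest. The means were 2244 ± 265 in MB3 libraries and 2313 ± 166 in VEH2 libraries (log2 -0.05, SE 0.11, 95% interval -0.29 to 0.20, limma adjusted p = 0.852). Only 6 of 10048 genes, 0.0597%, passed there, 0.0299% higher and 0.0299% lower, and MYC also failed to pass with edgeR and DESeq2. The sign of the MYC estimate turned positive without MB3 replicate 1 or without VEH2 replicate 2. MYCL in this experiment is not analysed here; the lowest gene in that table averaged 83.9 normalized counts.

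**Figure D3:**
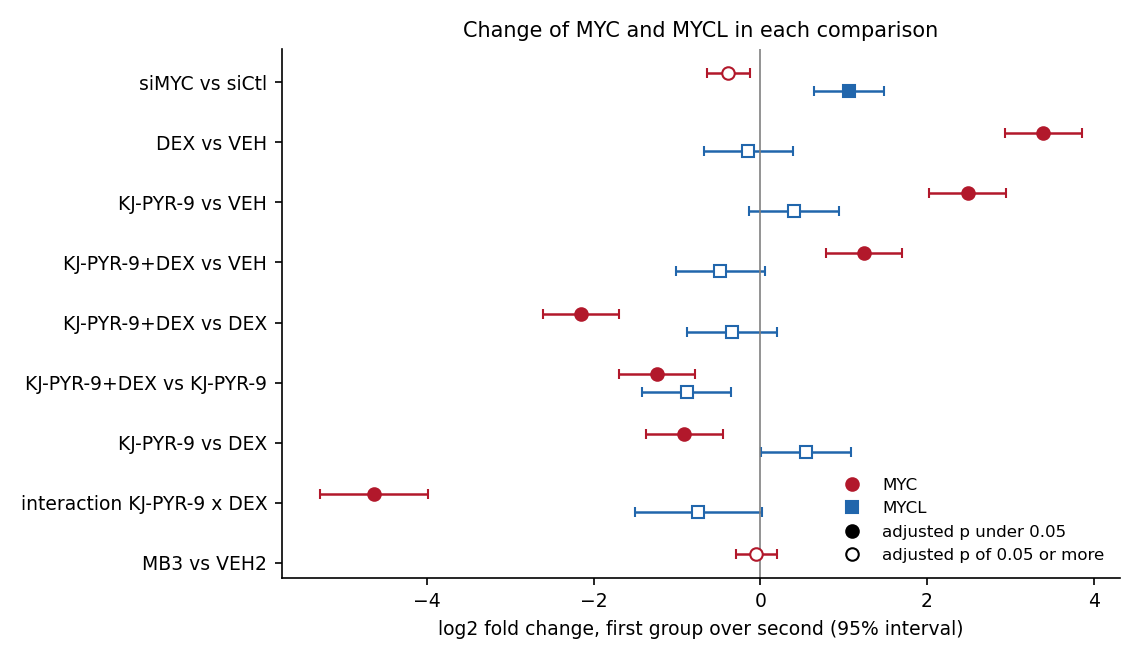
Log2 fold change of MYC (circles) and MYCL (squares) in each comparison, named as first group over second, with 95% intervals; filled symbols passed an adjusted p of 0.05. MYC lies right of 0 for DEX, KJ-PYR-9 and KJ-PYR-9 + DEX against VEH, and left of 0 once KJ-PYR-9 + DEX is set against DEX or KJ-PYR-9, while the only filled MYCL symbol is siMYC against siCtl.

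The genes that lie beside MYC are mostly long noncoding RNAs of low level. PVT1, a noncoding RNA gene 51.6 kb away on the side of higher coordinates, had 1202, 1312 and 1470 normalized counts in DEX libraries, against 943, 914 and 1130 in VEH libraries. The DEX libraries lay above the VEH libraries, yet the difference of 0.42 on the log2 scale missed the threshold (limma adjusted p = 0.0550; 0.0242 with the replicate block). KJ-PYR-9 libraries had 1200, 972 and 994 and KJ-PYR-9 + DEX libraries 1185, 1180 and 1185. PVT1 fell in KJ-PYR-9 against DEX, by -0.33 (limma adjusted p = 0.0465), a call lost without any of 8 of the 12 libraries, and its differences of 0.04 in siMYC against siCtl and 0.01 in MB3 against VEH2 did not pass.

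CASC11, a noncoding gene 1.47 kb from MYC on the other side, was too low to test in the inhibitor experiment. It had 3, 8 and 9 reads in DEX libraries, 6, 2 and 3 in KJ-PYR-9, 1, 0 and 0 in KJ-PYR-9 + DEX, and 0, 4 and 1 in VEH libraries. In normalized counts it had 9.15, 7.29 and 9.39 in DEX and at most 3.76 in any other library of that experiment. CASC11 was below the filter in the knockdown too, with means of 7.35 in siMYC and 5.43 in siCtl libraries. CASC8 and MIR1205, tested in the knockdown, gave log2 1.21 (limma adjusted p = 0.175) and 0.47 (limma adjusted p = 0.321). PCAT2 and RN7SKP226 were below the filter wherever they had a row.

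Around MYCL, 25 genes within 1 Mb could be tested in the knockdown, and 3 rose and 1 fell with siMYC (median -0.04, against 0.05 for all genes), near the background, where 11.4% of all genes were called higher and 4.78% lower. MFSD2A, a transporter of lysophospholipids 53.2 kb away, was among those that rose. It had 267, 350 and 413 normalized counts in siMYC libraries, against 94.9, 102 and 132 in siCtl libraries (log2 1.63, SE 0.21, limma adjusted p = 0.0101), with no overlap. TRIT1, which modifies tRNA and is the nearest tested gene at 11.9 kb, had 399, 432 and 472 in siMYC libraries, against 562, 578 and 571 in siCtl libraries (log2 -0.40, limma adjusted p = 0.0628).

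In the inhibitor experiment MFSD2A had a different course from MYCL. It rose in KJ-PYR-9 + DEX against DEX (236 ± 17.7 and 94.4 ± 11.7, log2 1.32, limma adjusted p = 0.000143), where MYCL had -0.34. TRIT1 fell in that comparison, 190 ± 28.6 in KJ-PYR-9 + DEX and 309 ± 39.5 in DEX libraries (log2 -0.70, limma adjusted p = 0.00147). CAP1 and PPT1, next on the MFSD2A side, gave -0.24 (limma adjusted p = 0.111) and -0.75 (limma adjusted p = 0.00240) there. BMP8B, on the TRIT1 side, gave 1.40 (limma adjusted p = 0.00518) from 1 to 14 reads a library, and OXCT2 was below the filter. Of the 25 genes tested, 6 rose and 7 fell in that comparison, in which 68.7% of all genes were called.

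**Figure D4:**
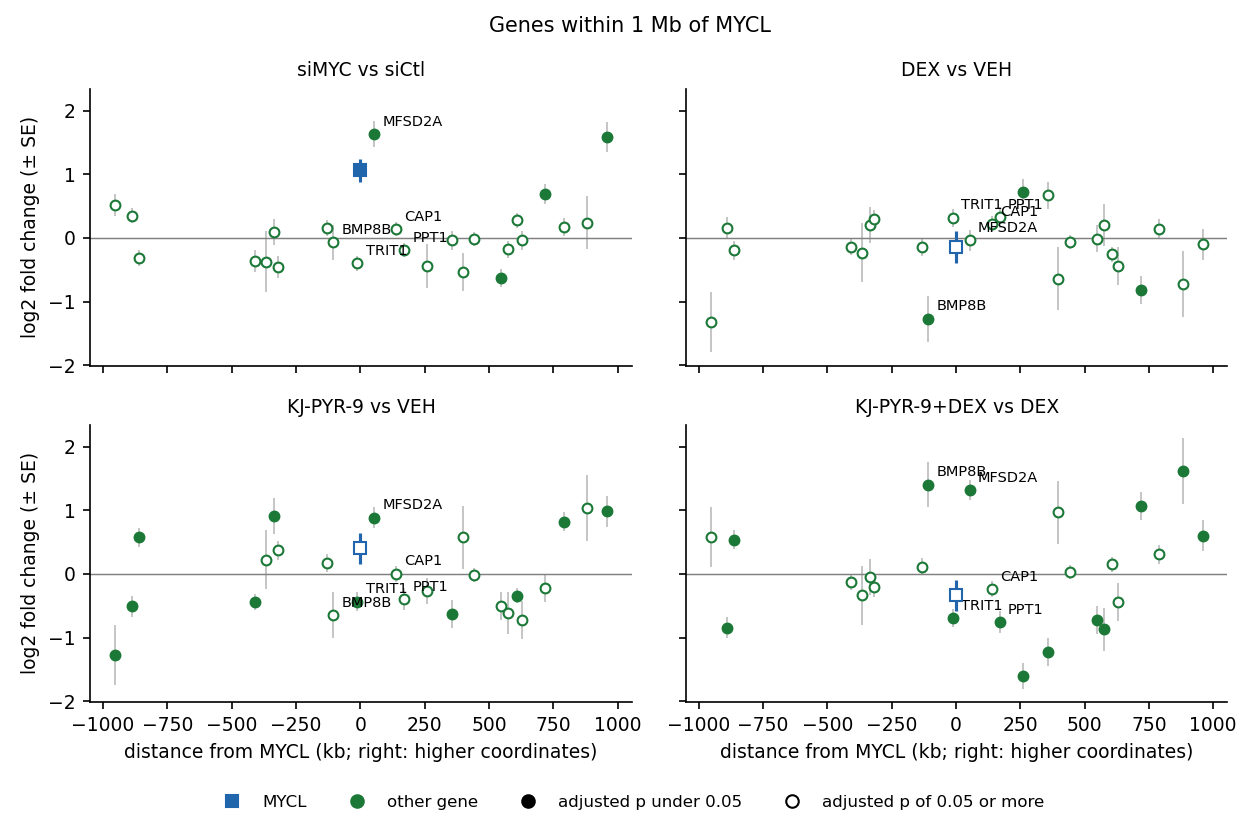
Log2 fold change (± SE) of the genes within 1 Mb of MYCL against their distance from it in kb, in 4 comparisons, with MYCL as a square at 0 and filled symbols for an adjusted p under 0.05. In siMYC against siCtl, MFSD2A at 1.63 and MYCL at 1.06 rise beside TRIT1 at -0.40, and in KJ-PYR-9 + DEX against DEX the neighbours scatter on both sides of 0.

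As a description of likeness, each gene was correlated with MYC and MYCL over the 12 inhibitor libraries, which share their experiment and size factors. The genes compared were those that averaged 50 or more, 11062 for MYC and 11063 for MYCL. The highest Pearson r with MYC was 0.978 for DKK1, a secreted inhibitor of WNT signalling. CHMP1B, a subunit of the ESCRT-III complex, had 0.973; SGK1, a serum and glucocorticoid regulated kinase, 0.972; KLF6, a zinc finger transcription factor, 0.970; and MCF2L2, a guanine nucleotide exchange factor, 0.965. DKK1 averaged 3730 ± 148 in DEX libraries, 2203 ± 499 with KJ-PYR-9, 1158 ± 184 with KJ-PYR-9 + DEX and 680 ± 276 in VEH libraries, the same order of groups as MYC. The lowest were HIF1AN, an asparaginyl hydroxylase acting on HIF, at -0.931, TICRR, a replication initiation factor, at -0.930, and ZNF785 at -0.928.

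The likeness to MYC did not extend to the knockdown for each of these genes. DKK1 averaged 4042 ± 225 in siMYC cells and 1412 ± 47.4 in siCtl cells (log2 1.52, limma adjusted p = 0.00551), and SGK1 rose by 0.71 (limma adjusted p = 0.0181; the call is lost without any siCtl library or siMYC replicate 3), while MYC was lower in siMYC cells. CHMP1B, KLF6 and MCF2L2 gave 0.10, 0.40 and -0.46 there and did not pass. With MYCL the highest r was 0.876 for NGDN, followed by FOSL1, an AP-1 subunit, at 0.868, WHAMM, an actin nucleation factor, at 0.843, ZNF462 at 0.833 and SLC25A38 at 0.831. Among the lowest were PIK3R1, a regulatory subunit of PI3 kinase, at -0.851, and PAQR8 at -0.848.

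Genes that MYC is known to activate were mostly lower with siMYC. The lists of activated and repressed genes were chosen with earlier results of these data known, so their counts are a description. Of the 23 tested of 25 activated genes listed, 7 fell and none rose, beside 4.78% of all genes called lower. Their median was -0.46, against 0.05 for all genes. HSPD1, a mitochondrial chaperonin, fell by 0.97 (3873 ± 398 in siMYC cells and 7610 ± 1082 in siCtl cells, limma adjusted p = 0.0145). NOP16 and BOP1, which serve ribosome assembly, fell by 0.75 (limma adjusted p = 0.0251) and 0.68 (limma adjusted p = 0.0403). The count of 7 was 16 with edgeR on the recovered reads, chosen after the data were seen, and 0 without siMYC replicate 3 or siCtl replicate 3, 1 without siCtl replicate 1 or 2; all 3 genes just named lost their call without siMYC replicate 3 or siCtl replicate 3. At an unadjusted p under 0.05, 16 were lower and 0 higher. Genes that MYC is known to repress gave 4 that rose and none that fell of 17 tested (median 0.57), beside 11.4% of all genes called higher. CDKN1A, a cyclin-dependent kinase inhibitor, rose by 1.90 (1081 ± 262 in siMYC cells and 295 ± 92.6 in siCtl cells, limma adjusted p = 0.0140), CCND1, cyclin D1, by 1.23 (limma adjusted p = 0.0104) and GADD45A, a stress-induced growth arrest gene, by 0.99 (limma adjusted p = 0.0101), and these 3 stayed called without any library in turn.

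With KJ-PYR-9 against VEH, 10 of the 23 activated genes rose and 2 fell (median 0.24, against 0.06 for all genes), beside 25.4% of all genes called higher and 17.5% lower. BOP1 rose by 1.28 (limma adjusted p = 0.00121) and SRM, spermidine synthase, by 1.01 (limma adjusted p = 0.00222), while EIF4E, the cap-binding initiation factor, fell by 1.16 (limma adjusted p = 0.00710). The count of 10 was 4 without KJ-PYR-9 replicate 3, 5 without KJ-PYR-9 replicate 2 or VEH replicate 1, and 6 without VEH replicate 2. With the replicate block, 13 of the activated genes rose and 4 fell, where 4379 of all 13616 genes were called higher and 3518 lower. Beside the same 25.4% and 17.5%, 9 of the 17 repressed genes rose and 1 fell (median 0.91), led by GADD45A at 2.19 (limma adjusted p = 0.000122), CDKN1A at 1.81 (limma adjusted p = 0.00142) and CDKN1C at 1.81 (limma adjusted p = 0.00108). Of these 17, 10 rose and 2 fell with the replicate block. With DEX against VEH, 2 activated genes rose and 1 fell (median 0.09, against 0.02 for all genes, with 9.5% of all genes called higher and 8.02% lower). Without DEX replicate 1 or 2, or without any VEH library in turn, 0 were called in either direction. Of the repressed genes 6 rose and 1 fell (median 0.25), and 3 rose and 1 fell without DEX replicate 1 or 2 or VEH replicate 1 or 2. With the replicate block, 7 activated genes rose and 3 fell with DEX, and 7 repressed genes rose and 4 fell. In that setting 3254 of all 13616 genes were called higher and 2671 lower. KLF6 rose by 2.92 (25153 ± 3425 in DEX libraries and 3351 ± 738 in VEH libraries, limma adjusted p = 3.86e-06). MYC itself rose in both these comparisons.

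**Figure D5:**
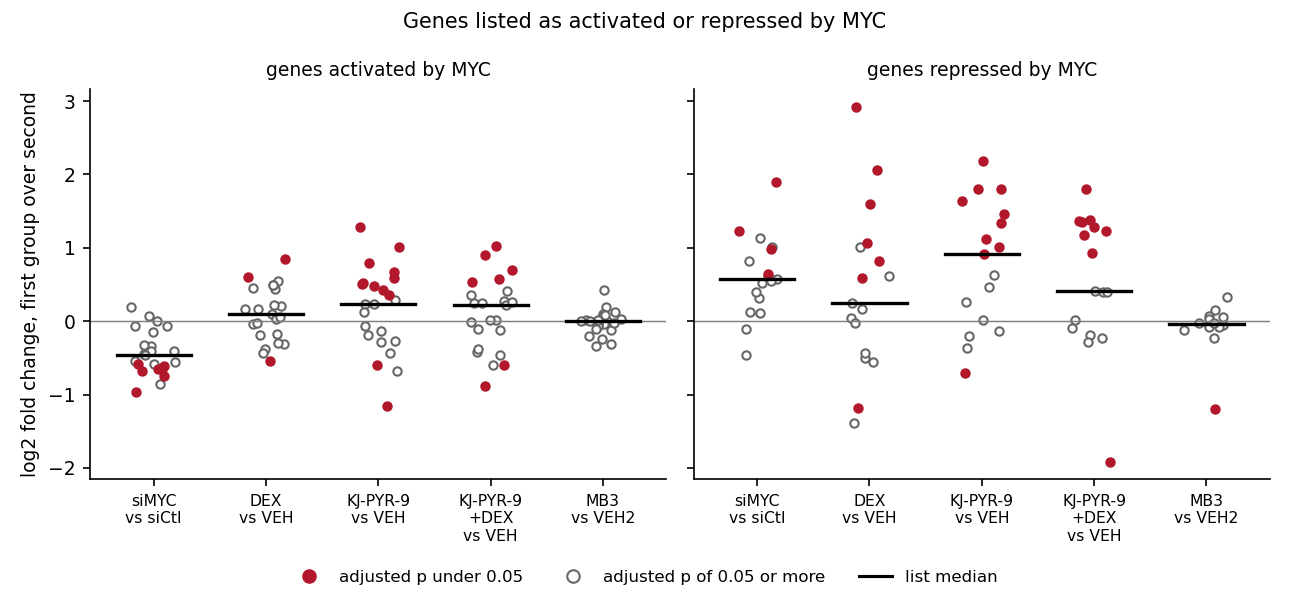
Log2 fold changes of genes that MYC is known to activate (left) or repress (right), a point per gene with filled points for an adjusted p under 0.05 and a line at the median, in 5 comparisons named as first group over second. The activated genes centre on -0.46 in siMYC against siCtl and on 0.24 in KJ-PYR-9 against VEH, and the repressed genes lie above 0 in most of both.

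Of the MAX network, the dimer partners and antagonists of the MYC family, 0 of 9 tested genes passed in limma with siMYC, where 1 was lower at an unadjusted p under 0.05 and edgeR called 1 lower. MAX gave 0.12 (limma adjusted p = 0.568) there and -0.06 (limma adjusted p = 0.684) in KJ-PYR-9 against VEH. In that comparison, where 25.4% of all genes were called higher, 3 rose and none fell: MNT, a MAX-binding repressor, by 0.98 (limma adjusted p = 0.00892), and the MAX dimerization proteins MXD1 by 0.87 (limma adjusted p = 0.00289) and MXD4 by 0.73 (limma adjusted p = 0.00421). With DEX against VEH, 2 of the 9 rose and 3 fell, beside 9.5% of all genes called higher and 8.02% lower. Without DEX replicate 1, 0 were called in either direction. MXD1, which rose with KJ-PYR-9 against VEH, also rose with DEX against VEH, by 0.60 (limma adjusted p = 0.0289). MXD1 fell by 1.31 in KJ-PYR-9 + DEX against DEX (limma adjusted p = 0.000137), with an interaction of -2.18 (limma adjusted p = 0.000113). It also fell in KJ-PYR-9 + DEX against VEH, by 0.71 (limma adjusted p = 0.0113), where MYC rose. With the replicate block, 5 of the 9 rose and none fell in KJ-PYR-9 against VEH. All genes then gave 4379 of 13616 called higher and 3518 lower. In DEX against VEH, the block gave 3 that rose and 4 that fell, where 3254 of all genes were called higher and 2671 lower. MYCN is not analysed here.

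Among genes whose products control MYC transcription, 4 of 18 rose and 1 fell with siMYC, beside 11.4% of all genes called higher and 4.78% lower. Without any siCtl library in turn, or without siMYC replicate 3, 1 rose and 0 fell. PRDM1, also called BLIMP1, a repressor of MYC in B cells, rose by 1.47 (339 ± 87.8 in siMYC cells and 120 ± 18.1 in siCtl cells, limma adjusted p = 0.0125). FUBP1, which binds the far upstream element of MYC, fell by 0.65 (limma adjusted p = 0.0295), a call lost without any siCtl library or siMYC replicate 3. PRDM1 had 277 ± 37.4 normalized counts in DEX libraries, 169 ± 40.9 in KJ-PYR-9, 35.3 ± 4.24 in KJ-PYR-9 + DEX and 56.2 ± 28.2 in VEH libraries, with an interaction of -4.65 (limma adjusted p = 0.000152). KLF4, a zinc finger factor, likewise rose in DEX by 2.24 (limma adjusted p = 2.71e-05) and in KJ-PYR-9 by 1.98 (limma adjusted p = 9.90e-05) against VEH. Of the 18, 5 rose and 1 fell in KJ-PYR-9 against VEH, near or below the 25.4% and 17.5% of all genes, and 10 rose and 4 fell with the replicate block. Without KJ-PYR-9 + DEX replicate 3 the counts were 8 and 4, without DEX replicate 3 or KJ-PYR-9 + DEX replicate 2 they were 5 and 2, and without VEH replicate 1 or KJ-PYR-9 replicate 3 they were 4 and 0.

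Proteins that bind MYC mRNA included the decay factors ZFP36 and ZFP36L1, which bind AU-rich elements. ZFP36 had 2963 ± 321 in DEX libraries, 3965 ± 646 in KJ-PYR-9, 1386 ± 326 in KJ-PYR-9 + DEX and 351 ± 56.6 in VEH libraries, with an interaction of -4.61 (limma adjusted p = 2.67e-06). ZFP36L1 rose by 2.58 in DEX (limma adjusted p = 4.35e-05) and by 1.48 in KJ-PYR-9 (limma adjusted p = 0.00135) against VEH, and by 0.91 in siMYC against siCtl (limma adjusted p = 0.0295), where no other of the 13 was called and its own call was lost without any siCtl library or siMYC replicate 3. Of the 13, 4 rose with DEX and none fell, beside 9.5% of all genes called higher and 8.02% lower, and 2 rose without DEX replicate 1 or VEH replicate 2 or 3. With KJ-PYR-9 against VEH 5 rose and 2 fell, beside 25.4% and 17.5% of all genes. The 2 that fell became 0 without VEH replicate 1 or 2 or KJ-PYR-9 replicate 1 or 3, and 1 without VEH replicate 3 or KJ-PYR-9 replicate 2. With the replicate block, 5 rose and 3 fell, where 4379 of all 13616 genes were called higher and 3518 lower. In DEX against VEH, the block gave 6 that rose and 1 that fell, where 3254 of all genes were called higher and 2671 lower.

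In the list on MYC protein turnover, 1 of 16 rose and 2 fell with siMYC, beside 11.4% and 4.78% of all genes. SKP2, a ubiquitin ligase subunit that targets MYC, fell by 0.81 in siMYC against siCtl (limma adjusted p = 0.0251) and by 1.19 in KJ-PYR-9 against VEH (limma adjusted p = 0.00466), where 5 of 16 rose and 4 fell, near the 25.4% and 17.5% of all genes. Those counts were 2 and 2 without VEH replicate 1, 3 and 3 without KJ-PYR-9 replicate 2, and 4 and 1 without KJ-PYR-9 replicate 3. With the replicate block they were 6 and 7, where 4379 of all 13616 genes were called higher and 3518 lower. FBXO32, another ubiquitin ligase subunit, rose by 0.80 with siMYC (limma adjusted p = 0.0310) and by 0.85 with DEX against VEH (limma adjusted p = 0.00193). Both knockdown calls were lost without any siCtl library or siMYC replicate 3, and that of FBXO32 also without siMYC replicate 2.

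Of the 16 transcriptional cofactors of MYC, 0 passed in limma with siMYC, where 1 was higher and 3 lower at an unadjusted p under 0.05 and edgeR called 2 lower. With KJ-PYR-9 against VEH, where 25.4% of all genes were called higher and 17.5% lower, 8 rose and 1 fell. Among those that rose were RUVBL2, a helicase of chromatin remodelling complexes, by 1.38 (limma adjusted p = 0.00155), and ZBTB17, the partner of MYC at repressed genes, by 1.18 (limma adjusted p = 0.00191). In KJ-PYR-9 + DEX against DEX 11 rose and 1 fell (median 0.61, against 0.00 for all genes, of which 33.6% were called higher and 35.1% lower), with HCFC1, a chromatin scaffold, at 1.50 (limma adjusted p = 6.52e-05). KAT2A, the target of MB-3, gave -0.20 in MB3 against VEH2 (limma adjusted p = 0.526). Across the 7 lists a single gene passed with MB3, CEBPD, a transcription factor listed as repressed by MYC, which fell by 1.19 (limma adjusted p = 0.0466), a call lost without MB3 replicate 2 or any VEH2 library.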

How the data were processed

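The deposited signal of each of the 24 libraries was a read count normalized by library; per the submitters' processing notes, featureCounts, DESeq2 and GRCh38 were used. The aligner, the annotation, strandedness and tool versions are not given in the sources used here. Scaling each library by its own factor turned all its values into whole numbers (tolerance 0.0001), taken as reads. Genes with a mean of at least 10 were tested on log2(value + 1), which understates changes of low genes, in limma 3.58.1 (R 4.3.3) with two-sided p-values, Benjamini-Hochberg adjusted over all genes of a comparison. The 12 inhibitor libraries shared 1 fit. The 3 tables were normalized separately and each was tested alone. Alternatives were a pseudocount of 5, no filter, a mean of at least 50, TMM, trended variance, edgeR 4.0.16 and DESeq2 1.42.0 on recovered reads, a replicate block and leaving out libraries. List counts under other settings were added after seeing the data. The limma fit was also run on simulated counts of a single pair of groups per experiment, without paired replicates. That run did not cover the interaction or changes as small as that of MYC with siMYC. Deviations of same-numbered libraries correlated at 0.130 to 0.524 in the 18 inhibitor pairs, at 0.208 to 0.389 for MB3 and VEH2, and at -0.347 to -0.020 in the knockdown, so the labels' replicate numbers were taken to pair libraries in the inhibitor and MB-3 experiments only. For replicate 1 the pairing was less clear. DEX replicate 1 correlated at 0.130 with VEH replicate 1 and 0.131 with VEH replicate 2. With KJ-PYR-9 + DEX replicates 1 and 2, DEX replicate 1 had 0.211 and 0.236. KJ-PYR-9 replicate 1 had 0.184 with KJ-PYR-9 + DEX replicate 1 and 0.235 with its replicate 2. With VEH replicates 1 and 2, KJ-PYR-9 replicate 1 had 0.132 and 0.136. VEH and KJ-PYR-9 + DEX replicate 1 correlated at 0.459.

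MB3 replicate 1 has a title that reads MED3 and a treatment field that reads MB3, which was used. The named genes were MYC and MYCL, the 3 nearest annotated genes on each side, the 5 highest and 3 lowest correlations (1 of the lowest with MYCL is not reported here), and examples from the 3 largest called changes per list and comparison. MAX and KAT2A were named beside them after their values were seen. The members and the lists of genes were chosen with earlier results of these data known. Exon lengths are from GENCODE 29.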

Additional observations from a re-analysis of the deposited data

Results flagged for a closer look

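The effect of KJ-PYR-9 on MYC differed between cells with and without DEX, by -4.63 on the log2 scale (limma adjusted p = 4.38e-06 for the interaction over 12 libraries). It is listed because the adjusted p of this interaction was under 0.05. Every KJ-PYR-9 + DEX library lay below every DEX library, whereas in the absence of DEX every KJ-PYR-9 library lay above every VEH library. No group of these experiments has more than 3 samples, so no library was tested as an outlier.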

How the results depend on the processing

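MYC kept its direction and its side of the threshold in 167 of 174 alternative values, MYCL in 141 of 153 and their ratio in 49 of 49. In siMYC against siCtl, MYC passed with a filter at a mean of 50 (-0.38) or trended variance (-0.38), with TMM (-0.45), edgeR (-0.45) and DESeq2 (-0.45), and leaving out a library gave -0.42 to -0.36. MYCL there ran from 0.92 to 1.16 without 1 library. For MYCL in KJ-PYR-9 + DEX against KJ-PYR-9, a pseudocount of 5 gave a call at -0.74 and the replicate block at -0.89, and leaving out a library gave -1.09 to -0.64. In KJ-PYR-9 against DEX the replicate block and a fit of the 6 libraries alone both gave a call at 0.55, and leaving out a library 0.42 to 0.73. MYC in MB3 against VEH2 turned to 0.0087 without VEH2 replicate 2 and 0.053 without MB3 replicate 1, the lowest such value being -0.11. The cause was not tested.

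Counts of genes called moved more. With the replicate block they were 470 for siMYC, 5925 for DEX and 7548 for KJ-PYR-9 + DEX against VEH, 2018 for KJ-PYR-9 + DEX against KJ-PYR-9, 4399 for the interaction and 14 for MB3; the numbers did not pair the knockdown libraries, and the block changed no other call of MYC or MYCL. DESeq2 gave 3782 for siMYC, 3737 for DEX against VEH and 152 for MB3, where trended variance gave 11 and edgeR 16, and the 6 libraries alone gave 1592 for KJ-PYR-9 + DEX against VEH. Without 1 library the counts ran from 432 to 3983 for siMYC, 3393 to 6838 for KJ-PYR-9, 865 to 3940 for DEX and 1376 to 5285 for KJ-PYR-9 + DEX against VEH, 624 to 1224 for KJ-PYR-9 + DEX against KJ-PYR-9, 1469 to 2731 for the interaction and 1 to 3 for MB3.

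MYCL in the inhibitor experiment had no value with a mean of at least 50, since it lay below that filter. It had 5 to 60 reads a library there. Protein was not measured.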
